A study of Mus musculus with 47 samples.

Results

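The 10 genes described here encode the TGF-β ligands, their receptors, the proteins that release active ligand, and SMAD proteins of the same pathway. They were chosen by name, for their place in the pathway, with earlier results of these data known: *Tgfb1*, *Tgfb2* and *Tgfb3* (ligands), *Nrros*, *Itgav* and *Itgb8* (activators), *Tgfbr1* and *Tgfbr2* (receptors), *Smad3* (a signal transducer) and *Smad7* (an inhibitor). All 10 were among the 54281 genes of the TPM table and the 54532 genes of the count table, and all 10 passed the filter of a mean of at least 1 TPM (a transcript level corrected for transcript length and library size), as did 14580 genes in all. The study asked whether removing microglia changes diurnal rhythms in the mouse cortex. RNA was sequenced from the cortex of 47 male wild-type C57BL/6J mice of about 3 months, 1 library per mouse. For 10 days before harvest, 23 of them ate control chow and 24 ate chow with 1200 ppm PLX5622, an inhibitor of CSF1R, the receptor that microglia need to survive. Both diets were harvested at 6 Zeitgeber times (ZT, hours after lights on), ZT2, ZT6, ZT10, ZT14, ZT18 and ZT22, with 4 mice per group, apart from control mice at ZT14 with 3. PLX5622 acts on every cell that depends on CSF1R, so macrophages at the borders of the brain were exposed to it as well as microglia. Counts per library ranged from 16597987 to 24085876 in control mice (median 18314954) and from 16795170 to 27626161 in PLX5622 mice (median 21476967.5), so the PLX5622 libraries were deeper on the median, and the part of this gap in the results was not tested.

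TGF-β ligands are made as latent complexes, in which a propeptide wraps the growth factor and a partner protein tethers the complex to matrix or to a cell surface. In the brain, NRROS (also called LRRC33) presents latent TGF-β1 on microglia and other macrophages, and the integrin αVβ8, encoded by *Itgav* and *Itgb8*, binds the propeptide and activates the latent complex. The ligand then brings together the type II receptor TGFBR2 and the type I receptor TGFBR1, which phosphorylates SMAD2 and SMAD3, while SMAD7 is a feedback inhibitor of the receptor. Microglia need this signal to keep their mature identity.

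The labels were checked against cell markers, which were also chosen with earlier results of these data known. The 18 microglia markers were present in control mice with a summed level of 799 ± 83.7 TPM (SD, n = 23) and stood at 89.7 ± 37.2 TPM (SD, n = 24) in PLX5622 mice, 11.2% of the control mean. All 18 fell (limma, adjusted p under 0.05), and 14 of them were left at under 12% of their control mean. The most abundant, *C1qa*, a complement gene, went from 105 ± 15.4 to 8.43 ± 5.31 TPM. *P2ry13*, a purinergic receptor gene, was left at 6.04%. *Sall1*, a transcription factor gene, kept 66.1%. No marker was at 0 in every library. In bulk tissue, fewer cells of a type and less RNA per cell cannot be told apart, and this holds for every level below.

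The genes were transcribed at modest levels. In control mice, the mean TPM fell in the order *Itgav* (19.5), *Smad3* (14.2), *Itgb8* (12.1), *Tgfbr1* (7.58), *Smad7* (7.48), *Tgfbr2* (6.50), *Tgfb3* (5.83), *Tgfb1* (4.78), *Tgfb2* (4.23) and *Nrros* (3.31). Not all neighbours in this order were apart: *Itgav* was above *Smad3*, and *Itgb8* above *Tgfbr1*, in 23 of 23 libraries, but *Tgfbr1* was above *Smad7* in only 11 of 23 and *Smad3* above *Itgb8* in 15 of 23. In PLX5622 mice *Tgfbr1* moved from place 4 to place 8 and *Tgfb1* from place 8 to place 10, the last. The top 3 places were taken by the same genes in the same order.

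Of the 10 genes, 4 fell with PLX5622 and 0 rose in limma with Benjamini-Hochberg adjustment over all 14580 genes (adjusted p under 0.05). At an unadjusted p under 0.05 the higher genes numbered 2, *Tgfb2* and *Itgb8*, and edgeR and DESeq2 on the counts called 1 of them, *Itgb8*. By the same rule, 2.58% of all genes tested fell and 0.871% rose in limma, 4.99% and 2.14% in edgeR, and 3.5% and 1.21% in DESeq2. The 4 were *Tgfb1*, *Tgfbr1*, *Tgfbr2* and *Nrros*: 1 of 3 ligands, both receptors and 1 of 3 activators. In *Tgfb1* and *Tgfbr1* every one of the 24 PLX5622 libraries lay below all 23 control libraries, which was so for 0.583% of all genes tested. The median log2 fold change was -0.05 over the 10 genes and 0.03 over all genes tested.

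**Figure D1:**
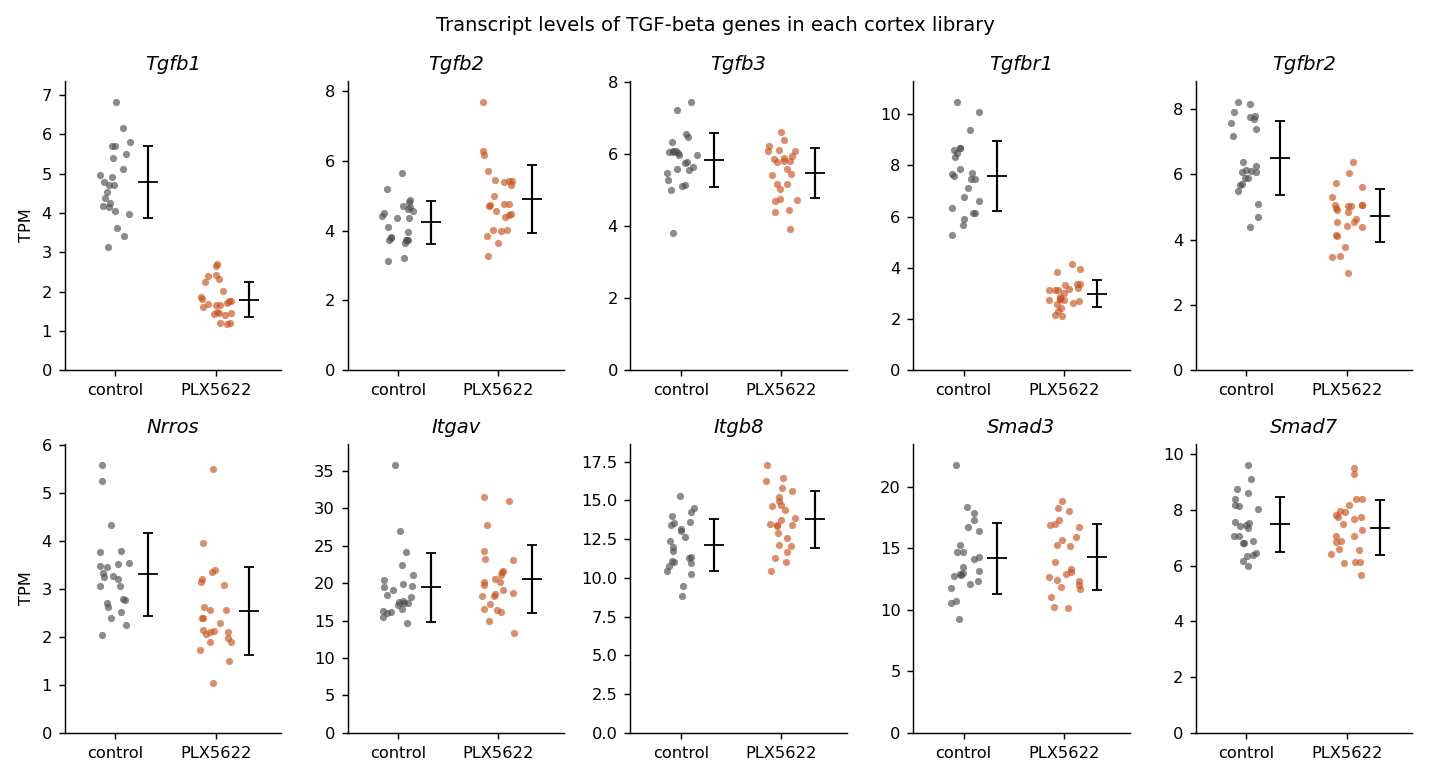
TPM of each of the 10 genes in 23 control and 24 PLX5622 cortex libraries, 1 point per mouse, with the mean and SD in black and every vertical axis from 0. The clouds of *Tgfb1* and *Tgfbr1* are apart, those of *Tgfbr2* and *Nrros* are shifted down and overlap, and those of the other genes lie over each other.

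The 250 bases before the transcription start of these 4 genes are shown because they fell together and yet differ in the make-up of their promoters. The sequences are from RefSeq on GRCm38.p6, 5′ to 3′ on the strand of the gene, with the GC box (GGGCGG, or CCGCCC on the other strand) and the letters CAGAC (or GTCTG), a core that SMAD proteins can bind, in capitals:
Tgfb1 (chr7:25686752-25687001, plus strand): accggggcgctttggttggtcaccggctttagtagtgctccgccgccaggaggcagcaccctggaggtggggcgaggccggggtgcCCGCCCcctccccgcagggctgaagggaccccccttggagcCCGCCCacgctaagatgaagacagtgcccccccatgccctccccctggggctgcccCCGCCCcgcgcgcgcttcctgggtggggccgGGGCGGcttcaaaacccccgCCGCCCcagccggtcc
Tgfbr1 (chr4:47352972-47353221, plus strand): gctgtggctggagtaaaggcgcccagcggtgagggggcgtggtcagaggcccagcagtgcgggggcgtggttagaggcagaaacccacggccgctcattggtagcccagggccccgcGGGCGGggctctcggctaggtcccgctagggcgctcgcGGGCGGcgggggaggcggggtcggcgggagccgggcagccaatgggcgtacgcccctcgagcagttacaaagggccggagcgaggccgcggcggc
Tgfbr2 (chr9:116175364-116175613, minus strand): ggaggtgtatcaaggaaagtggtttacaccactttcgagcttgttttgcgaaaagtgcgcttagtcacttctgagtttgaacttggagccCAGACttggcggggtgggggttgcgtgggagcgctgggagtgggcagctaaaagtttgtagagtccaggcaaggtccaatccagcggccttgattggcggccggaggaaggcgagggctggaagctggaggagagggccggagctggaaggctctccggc
Nrros (chr16:32165595-32165844, minus strand): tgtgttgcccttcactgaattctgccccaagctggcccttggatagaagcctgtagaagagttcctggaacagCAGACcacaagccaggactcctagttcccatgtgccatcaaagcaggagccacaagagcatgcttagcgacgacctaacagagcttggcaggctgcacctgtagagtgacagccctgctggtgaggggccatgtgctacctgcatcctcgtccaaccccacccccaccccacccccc

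The *Tgfb1* and *Tgfbr1* windows hold 5 and 2 GC boxes, with 75.2% and 74.8% G or C, against a median of 52.4% over the 32851 promoter windows in the table. The *Tgfbr2* and *Nrros* windows hold no GC box, 58.4% G or C each, and 1 CAGAC each, which the *Tgfb1* window and this *Tgfbr1* window lack. CpG pairs number 21 in *Tgfb1*, 29 in *Tgfbr1*, 12 in *Tgfbr2* and 3 in *Nrros* (median of all windows, 6). A GC box is in 32.74% of all windows and CAGAC or its complement in 42.19%. The letters GAGGAAGT or ACTTCCTC, a site for the myeloid factor PU.1, are in 2.44% of windows and in none of these 4, but are present once in the *Itgav* window. The palindrome GTCTAGAC, which SMAD3 can bind, is in 0.17% of windows and in none of those of the 8 genes with an entry. Of the 8, only *Tgfbr1* has a second start in the table, whose window has no GC box, 1 CAGAC and 52.8% G or C. Genes that were not called hold the same letters. The *Smad3* window has 2 GC boxes and 69.2% G or C, the *Tgfb2* window 2 CAGAC and the *Itgb8* window 1. The *Itgav* window has neither. Whether these letters relate to the fall was not tested.

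Among the ligands, *Tgfb1* (ENSMUSG00000002603, chr7:25687002-25705077 on GRCm38, plus strand), the form that microglia and other immune cells make and need, ranged from 3.14 to 6.81 TPM in control mice with a median of 4.72. In PLX5622 mice it ranged from 1.17 to 2.70 TPM with a median of 1.70. The ranges did not meet, and the mean went from 4.78 ± 0.908 (SD, n = 23) to 1.79 ± 0.450 TPM (SD, n = 24), or 37.5% ± 2.43 (standard error) of control. On the log2(TPM + 1) scale, which understates changes of low genes, the difference was -1.05 (standard error 0.065, adjusted p = 1.58e-18), and *Tgfb1* was lower in PLX5622 mice at all 6 Zeitgeber times. The counts behind it were 103 to 202 reads per control library and 33 to 95 reads per PLX5622 library. In counts scaled to the library total (CPM), *Tgfb1* stood at 36.9% of control, close to the TPM value. At ZT2 the 4 control mice had 3.63, 4.96, 5.13 and 6.81 TPM and the 4 PLX5622 mice 1.61, 1.21, 1.41 and 1.46 TPM. At ZT14 the 3 control mice had 6.17, 3.14 and 5.70 TPM and the 4 PLX5622 mice 2.39, 1.72, 2.66 and 2.43 TPM. The lowest control mouse of all and 3 of the higher PLX5622 mice were thus in the same time group, and they still did not overlap.

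*Tgfb2* (ENSMUSG00000039239, chr1:186622792-186705989, minus strand), a ligand with roles in development and in astrocytes and neurons, did not follow *Tgfb1*. It ranged from 3.14 to 5.66 TPM in control mice (median 4.35) and from 3.26 to 7.67 TPM in PLX5622 mice (median 4.75). The groups overlapped in 20 of 24 PLX5622 libraries, and the other 4 were above every control. The mean was 4.23 ± 0.623 (SD, n = 23) against 4.90 ± 0.970 TPM (SD, n = 24), a log2 difference of 0.17 (standard error 0.060) that missed the threshold (adjusted p = 0.132), although the PLX5622 mean was the higher one at 6 of 6 Zeitgeber times. *Tgfb3* (ENSMUSG00000021253, chr12:86056745-86079041, minus strand), the third ligand, ranged from 3.80 to 7.42 TPM in control mice (median 5.95) and from 3.91 to 6.60 TPM in PLX5622 mice (median 5.67). All 24 PLX5622 libraries lay within the control range, and the log2 difference was -0.08 (standard error 0.048, adjusted p = 0.399). On the counts, edgeR's quasi-likelihood test gave *Tgfb3* a log2 change of -0.16 with an adjusted p of 0.0227. Exons of both genes overlap genes annotated on the opposite strand (Gm29491 for *Tgfb2*, Gm37804 and Gm48008 for *Tgfb3*), which had mean levels of 0.0686, 0.0782 and 0.0082 TPM.

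The mix of ligand transcripts shifted. *Tgfb1* made up 32.0% ± 3.35 (SD, n = 23) of the summed TPM of the 3 ligands in control mice, and after PLX5622 its part was 14.7% ± 2.80 (SD, n = 24). *Tgfb2* had 28.5% ± 2.59 and 40.2% ± 5.71, and *Tgfb3* 39.4% ± 3.98 and 45.1% ± 5.19. The summed ligand level was 14.9 ± 1.80 TPM in control mice and 12.2 ± 1.34 TPM in PLX5622 mice, 81.8% of control. Within a library, the log2 ratio of *Tgfb1* to *Tgfb2* was 0.17 ± 0.22 (SD) in control mice, above 0 in 19 of 23, and -1.46 ± 0.41 in PLX5622 mice, above 0 in 0 of 24. From CPM, which is not corrected for transcript length, the control ratio was -0.99 ± 0.23 (SD) and above 0 in 0 of 23, so that *Tgfb1* exceeds *Tgfb2* in control mice, and its share of the ligands, rest on the TPM table alone. The difference between diets, -1.63 on TPM and -1.62 on CPM, had a p of 1e-05 in a two-sided permutation test that exchanged the diets within Zeitgeber times (100000 permutations, the smallest p they can give) and 1.5e-05 adjusted over the 6 pairs compared. The ratio of *Tgfb1* to *Tgfb3* dropped by 1.34 on the log2 scale, with the same p and adjusted p in that permutation test. In both ratios all 24 PLX5622 libraries lay below every control library.

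**Figure D2:**
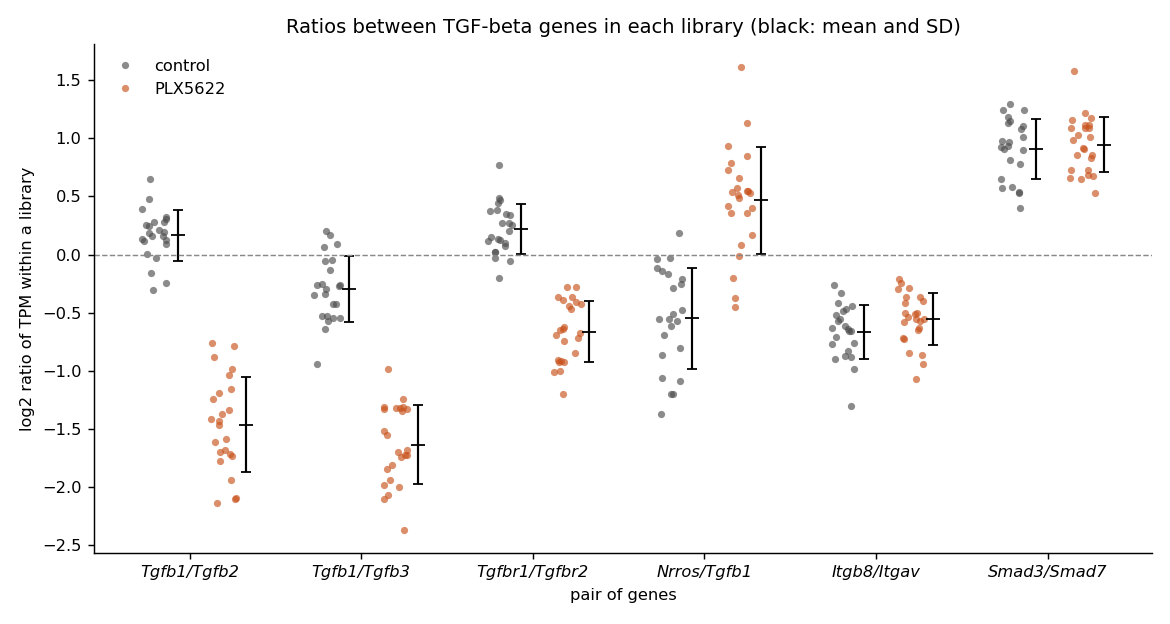
Log2 ratio of TPM for 6 pairs of genes in each of 23 control and 24 PLX5622 libraries, 1 point per mouse, with the mean and SD in black and a dashed line at equal levels. In the *Tgfb1*/*Tgfb2*, *Tgfb1*/*Tgfb3* and *Tgfbr1*/*Tgfbr2* pairs the diets do not overlap, *Nrros*/*Tgfb1* moves up, and the *Itgb8*/*Itgav* and *Smad3*/*Smad7* pairs overlap.

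The activators did not move as a group. *Nrros* (ENSMUSG00000052384, chr16:32142785-32165594, minus strand), which holds latent TGF-β1 at the surface of microglia, ranged from 2.04 to 5.59 TPM in control mice (median 3.25) and from 1.04 to 5.51 TPM in PLX5622 mice (median 2.35). The ranges overlapped in 18 of 24 PLX5622 libraries. Its mean went from 3.31 ± 0.862 (SD, n = 23) to 2.55 ± 0.922 TPM (SD, n = 24), or 77.0% ± 7.06 (standard error) of control, with a log2 difference of -0.30 (standard error 0.088, adjusted p = 0.0423). The PLX5622 mean was lower at 6 of 6 Zeitgeber times. The call was close to the threshold and was lost in 25 of the 47 fits that left out 1 library, with the highest adjusted p of 0.0703 without PLX5622 ZT10 replicate 3. The control mice held 72 to 166 reads of *Nrros* and the PLX5622 mice 56 to 136 reads, and on these counts edgeR gave a log2 change of -0.47 (adjusted p = 4.59e-07). At ZT10 the 4 PLX5622 mice had 5.51, 2.40, 1.495 and 2.30 TPM, so 1 mouse set the upper end of the range. The same 4 mice held 86, 79, 60 and 94 reads of *Nrros*, where that mouse did not stand out, and on CPM 10 of the 24 PLX5622 libraries lay below every control, against 6 on TPM.

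*Nrros* kept 77.0%, against 11.2% for the summed microglia markers, although the marker *Sall1* kept 66.1%. Relative to *Tgfb1*, the ligand it binds, *Nrros* was higher after PLX5622. The log2 ratio of *Nrros* to *Tgfb1* was -0.55 ± 0.43 (SD) in control mice and 0.47 ± 0.46 in PLX5622 mice. The difference was 1.01 (permutation p = 1e-05, adjusted p = 1.5e-05), and 18 of 24 PLX5622 libraries lay above every control.

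*Itgav* (ENSMUSG00000027087, chr2:83724397-83806916, plus strand), the αV chain that several β chains share, ranged from 14.7 to 35.8 TPM in control mice (median 18.1) and from 13.4 to 31.6 TPM in PLX5622 mice (median 19.95). Of the PLX5622 libraries, 23 of 24 lay within the control range, and the log2 difference was 0.07 (standard error 0.079, adjusted p = 0.712). *Itgb8* (ENSMUSG00000025321, chr12:119158022-119238802, minus strand), the β8 chain found on astrocytes, oligodendrocyte precursors and other glia, ranged from 8.84 to 15.3 TPM in control mice (median 11.99) and from 10.4 to 17.3 TPM in PLX5622 mice (median 13.6). The groups overlapped in 19 of 24 PLX5622 libraries, and 5 lay above every control. The log2 difference was 0.17 (standard error 0.055) with an adjusted p of 0.0734 in limma on TPM, and on the counts edgeR gave 0.16 with an adjusted p of 0.0116. The log2 ratio of *Itgb8* to *Itgav* was -0.66 ± 0.23 (SD) in control mice and -0.56 ± 0.22 in PLX5622 mice, a difference of 0.11 (permutation p = 0.0780, adjusted p = 0.0936). From CPM the control ratio was 0.08 ± 0.21 (SD) and above 0 in 14 of 23, against 0 of 23 on TPM. That *Itgav* exceeds *Itgb8* in control mice thus rests on the TPM table alone. The difference between diets on CPM was 0.12 with an adjusted permutation p of 0.0430.

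Both receptors fell, and by different amounts. *Tgfbr1* (ENSMUSG00000007613, chr4:47353222-47414931, plus strand), the type I receptor kinase, ranged from 5.28 to 10.5 TPM in control mice (median 7.59) and from 2.11 to 4.17 TPM in PLX5622 mice (median 2.93). All 24 PLX5622 libraries lay below every control library. The mean went from 7.58 ± 1.38 (SD, n = 23) to 2.99 ± 0.525 TPM (SD, n = 24), or 39.4% ± 2.06 (standard error) of control, and the log2 difference was -1.10 (standard error 0.061, adjusted p = 3.70e-20). Control libraries held 383 to 795 reads of *Tgfbr1* and PLX5622 libraries 153 to 312. At ZT18, where the control mean was lowest, the control mice had 5.66, 7.59, 5.28 and 5.89 TPM and the PLX5622 mice 3.33, 2.32, 2.44 and 3.22 TPM. The fall was present at each of the 6 Zeitgeber times, from -0.89 at ZT18 to -1.22 at ZT6 on the log2 scale.

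*Tgfbr2* (ENSMUSG00000032440, chr9:116084293-116175360, minus strand), the type II receptor that binds the ligand first and is also made by endothelial cells, ranged from 4.38 to 8.20 TPM in control mice (median 6.15) and from 2.98 to 6.39 TPM in PLX5622 mice (median 4.87). The ranges overlapped: 17 of 24 PLX5622 libraries were within the control range and 7 below it. The mean went from 6.50 ± 1.13 (SD, n = 23) to 4.73 ± 0.813 TPM (SD, n = 24), or 72.8% ± 3.68 (standard error) of control, with a log2 difference of -0.38 (standard error 0.059, adjusted p = 4.79e-06). On CPM the separation was wider, with 19 of 24 PLX5622 libraries below every control. *Tgfbr1* had 53.8% ± 3.71 (SD) of the summed receptor TPM in control mice and 38.8% ± 4.31 in PLX5622 mice. The log2 ratio of *Tgfbr1* to *Tgfbr2* was 0.22 ± 0.22 (SD) and -0.66 ± 0.26, above 0 in 20 of 23 control libraries and 0 of 24 PLX5622 libraries, with all 24 below every control. The difference of -0.88 had a permutation p of 1e-05 and an adjusted p of 1.5e-05, so the 2 receptors did not change to the same extent.

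Downstream, *Smad3* (ENSMUSG00000032402, chr9:63646767-63757994, minus strand), which carries the signal to the nucleus, ranged from 9.27 to 21.8 TPM in control mice (median 13.5) and from 10.2 to 18.9 TPM in PLX5622 mice (median 13.6). All 24 PLX5622 libraries lay within the control range, and the log2 difference of 0.01 (standard error 0.073, adjusted p = 0.973) changed sign between settings. *Smad7* (ENSMUSG00000025880, on chromosome 18), an inhibitor that the pathway itself induces, ranged from 5.98 to 9.61 TPM in control mice (median 7.43) and from 5.66 to 9.50 TPM in PLX5622 mice (median 7.38). All but 1 of the PLX5622 libraries lay within the control range, and the log2 difference was -0.02 (standard error 0.050, adjusted p = 0.863). The ratio of *Smad3* to *Smad7* differed by 0.04 on the log2 scale (permutation p = 0.604), with control and PLX5622 means of 0.91 ± 0.26 and 0.95 ± 0.24 (SD).

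**Figure D3:**
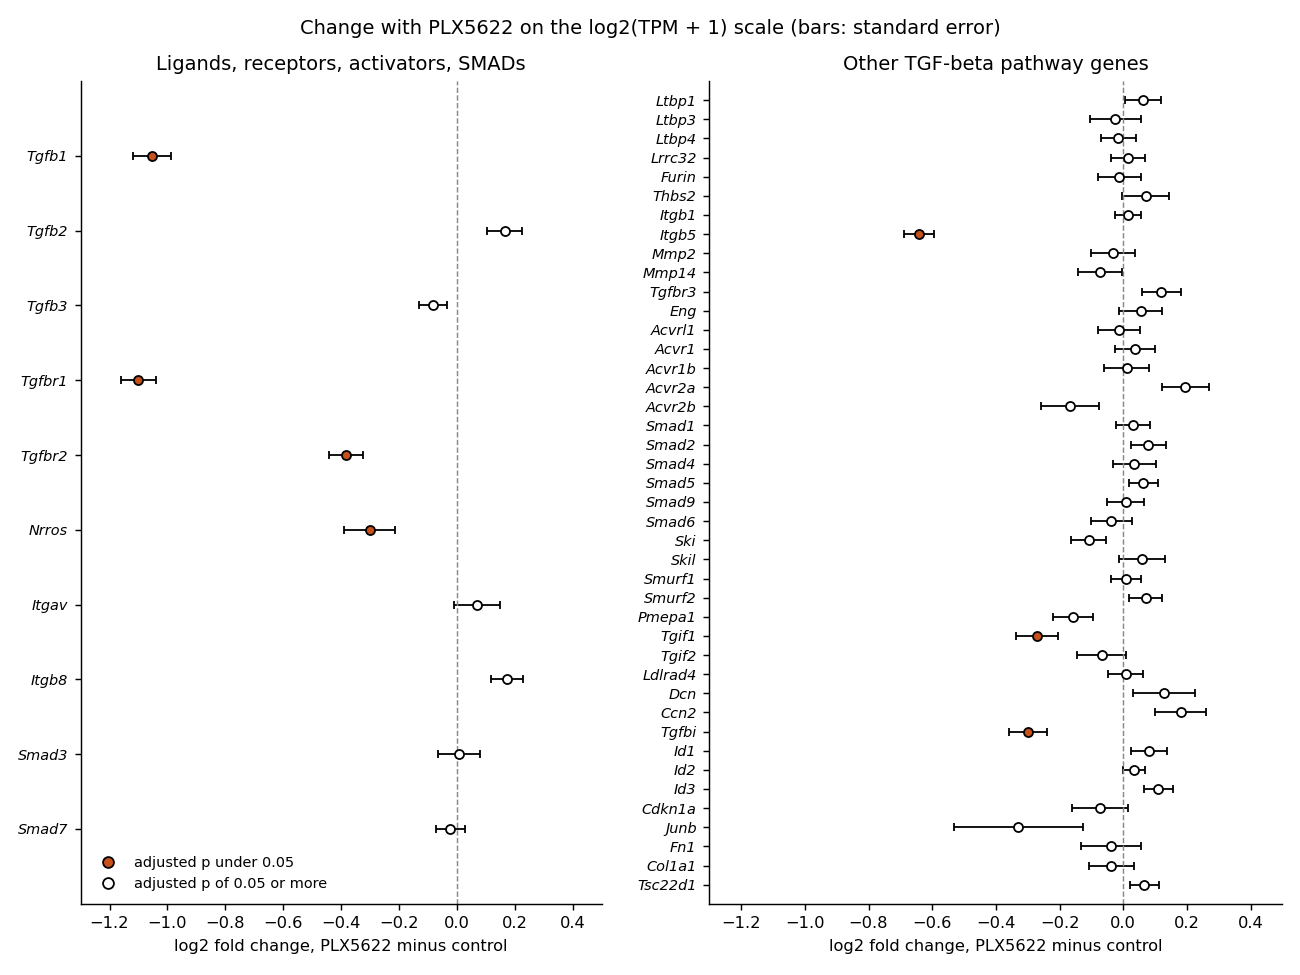
Log2 fold change (PLX5622 minus control, horizontal axis, log2(TPM + 1) scale) with its standard error for the 10 genes on the left and 42 other genes of the pathway on the right, filled where the adjusted p of limma was under 0.05. *Tgfb1* and *Tgfbr1* lie near -1, *Itgb5* at -0.64, and most other genes between -0.2 and 0.2.

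A list of 51 other genes of the pathway was examined in the same fit. Of these, 42 passed the filter, 3 fell and 0 rose, beside 2.58% and 0.871% of all genes tested. At an unadjusted p under 0.05, 5 were lower and 3 higher, and on the counts edgeR and DESeq2 each called 5 lower (the same 3, *Pmepa1* and *Itgb3*) and 1 higher (*Acvr2a*), beside 4.99% lower and 2.14% higher of all genes in edgeR and 3.5% and 1.21% in DESeq2. In limma their median log2 fold change was 0.01, beside 0.03 over all genes tested. The 9 that did not pass had means under 1 TPM in both diets. *Itgb5*, the β5 chain that pairs with αV and is abundant in microglia, ranged from 24.6 to 41.6 TPM in control mice (median 32.6) and from 17.3 to 28.3 TPM in PLX5622 mice (median 20.03). It was below every control in 23 of 24 PLX5622 libraries, with a log2 difference of -0.64 (standard error 0.048, adjusted p = 2.16e-15), and stood at 62.7% of control. *Tgfbi*, a secreted matrix protein gene induced by TGF-β, went from 2.06 ± 0.4928 to 1.47 ± 0.281 TPM (SD), a log2 difference of -0.30 (adjusted p = 5.85e-04). *Tgif1*, a repressor of SMAD-driven transcription, went from 1.35 ± 0.353 to 0.950 ± 0.310 TPM (SD), a log2 difference of -0.27 (adjusted p = 0.00662), and overlapped in 17 of 24 libraries.

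By role, in limma on TPM, 0 of 5 genes tested for latency and storage changed (*Ltbp4*, the most abundant, had 16.3 and 16.1 TPM). Of 5 genes for activation, *Itgb5* fell. None of 7 other receptors and co-receptors (*Acvr1b*, 34.1 and 34.7 TPM) and none of 5 other SMAD transducers (*Smad4*, 16.8 and 17.2 TPM) passed. Among 10 inhibitors (*Ski*, 44.7 and 41.5 TPM) *Tgif1* fell, and among 10 targets (*Tsc22d1*, 262 and 274 TPM) *Tgfbi* fell. The genes that missed the threshold with the largest differences were *Junb*, an immediate early gene and target (42.5 ± 24.7 and 34.0 ± 20.5 TPM, log2 difference -0.33, adjusted p = 0.433), and *Acvr2a*, an activin receptor gene (8.13 ± 1.46 and 9.54 ± 2.09 TPM, 0.20, adjusted p = 0.159). On the counts, *Acvr2a* was called higher by edgeR (0.19, adjusted p = 0.0384) and DESeq2 (adjusted p = 0.0415).

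Over the day, none of the 10 genes passed the test of a 24-h rhythm (F test of the cosine and sine terms over both diets, limma), against 5.26% of all genes tested, and 1 had an unadjusted p under 0.05. The smallest adjusted p was 0.183, for *Tgfbr2*, with a fitted amplitude of 0.12 on the log2 scale and a peak at ZT 23.9. Its control mean was 5.71 ± 1.42 TPM (SD, n = 4) at ZT10 and 6.99 ± 1.24 at ZT2, and its PLX5622 mean 4.16 ± 0.463 at ZT6 and 5.59 ± 0.453 at ZT2, so ZT2 was the highest group in both diets. On the counts, edgeR called *Tgfbr2* over time with an adjusted p of 0.0179, where 12.2% of all genes tested by edgeR and 8.41% by DESeq2 passed. The mean TPM was highest at ZT14 for 7 of 10 genes in control mice and for 8 of 10 in PLX5622 mice, but in CPM for 4 and 7. The control group at ZT14 holds 3 mice that differed widely (*Itgav*, 26.6 ± 9.33 TPM, SD). The share of all genes tested with their highest mean at ZT14 was not computed, so these counts are not read as a trait of the 10 genes. *Tgfb1* was highest at ZT14 in PLX5622 mice, with 2.30 ± 0.405 TPM against 1.42 ± 0.167 at ZT2, while in control mice ZT2 was highest with 5.13 ± 1.31 and ZT6 lowest with 4.27 ± 0.608. Of the other pathway genes, 4 of 42 passed the time test: *Mmp14*, a membrane protease gene, with a fitted amplitude of 0.28 and a peak at ZT 2.25, and the targets *Id1* (0.19, ZT 11), *Id3* (0.13, ZT 13.2) and *Junb* (0.56, ZT 15). On the counts *Id3* was not called over time (edgeR adjusted p = 0.214), and *Tgfbr3*, *Pmepa1*, *Tgif2*, *Cdkn1a* and *Tsc22d1* were called by edgeR and DESeq2.

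**Figure D4:**
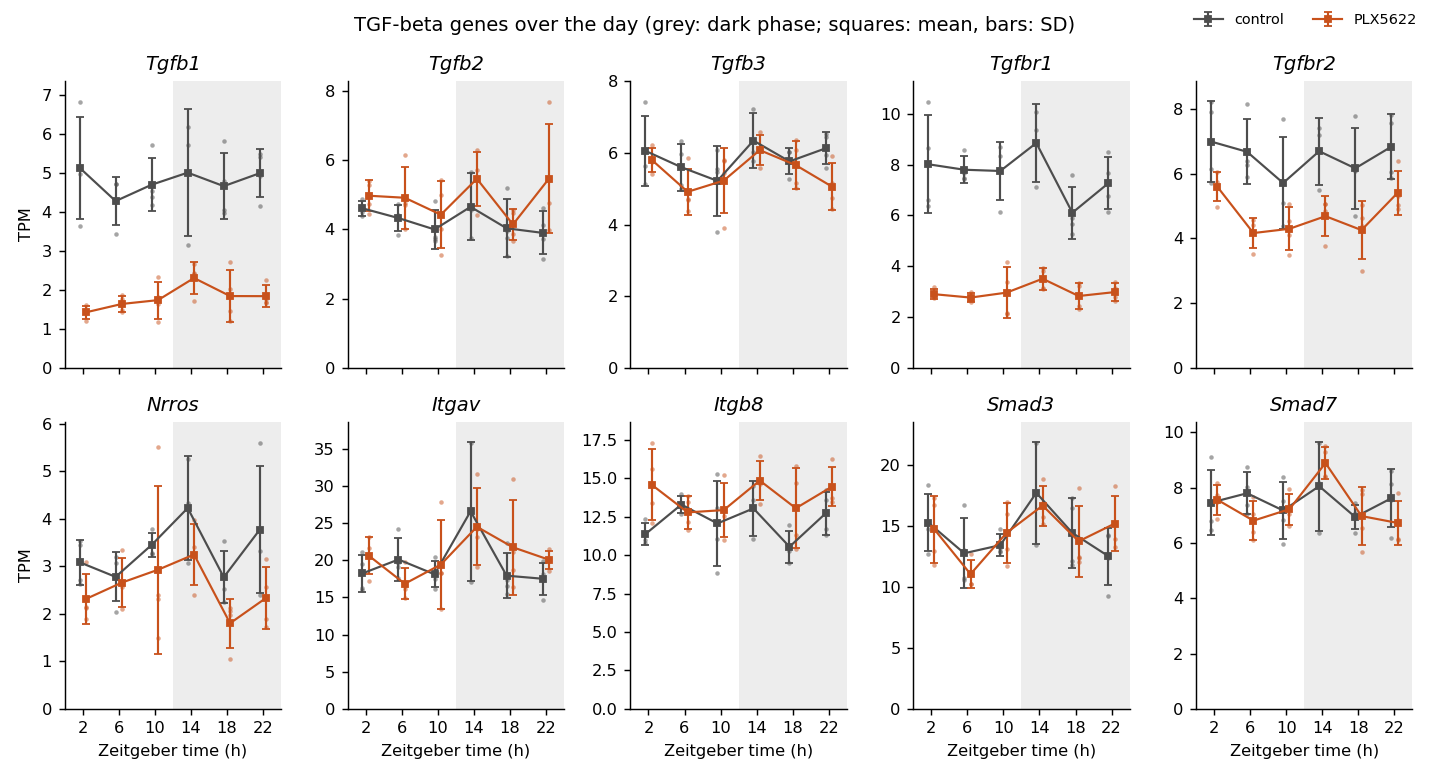
TPM of the 10 genes at 6 Zeitgeber times in control (grey) and PLX5622 (orange) cortex, with small points for mice, squares for means, bars for SD (n = 4 per group, 3 in control at ZT14) and the dark phase shaded. The gap between diets in *Tgfb1* and *Tgfbr1* is open at every time, and the bars of most neighbouring times overlap, with exceptions in *Tgfb2*, *Tgfbr2*, *Nrros* and *Smad7* in PLX5622 mice and in *Tgfbr1* and *Itgb8* in control mice.

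The difference between diets was not found to depend on the time of day. The F test of the interaction gave an adjusted p of 0.999986 for each of the 10 genes, and none of the 10 had an unadjusted p under 0.05. Of all genes tested, 0 passed (0%), with 669 at an unadjusted p under 0.05, and 0 passed with edgeR and with DESeq2. For *Tgfb1* the log2 difference between diets ran from -1.32 at ZT2 to -0.83 at ZT14, and its interaction had an unadjusted p of 0.206. For *Tgfbr2* it ran from -0.57 at ZT6 to -0.27 at ZT2, and for *Nrros* from -0.50 at ZT22 to -0.05 at ZT6. A fit with 3 principal components of the residuals called 237 genes in the F test of the interaction, and 0 of the 10. In that fit, 3 of the 10 had an unadjusted p under 0.05. Its components were drawn from the residuals of the same model. They leave every fold change as it was and narrow the errors, so these counts are not read as further findings.

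The levels were then set beside the amount of microglial RNA left in each mouse. A score, the mean log2(TPM + 1) of the 18 microglia markers, had a control mean of 4.96 ± 0.141 (SD, n = 23) and a PLX5622 mean of 2.09 ± 0.548 (SD, n = 24), where it ran from 1.06 to 2.86. Because the diets form separate clusters, correlations were computed within each diet, 20 in all, with p from 100000 permutations and adjusted over the 20. Zeitgeber time was not taken out, and mice were permuted across it, so differences between time groups enter r and its p. The 4 control mice at ZT18 scored 4.71, 4.97, 4.72 and 4.76, and the control mean of *Tgfbr1* was lowest there (6.11 TPM). In control mice *Tgfbr1* had the highest correlation, with Pearson's r = 0.840 and Spearman's rho = 0.843 (adjusted permutation p 2e-04 for each), and r = 0.847 without the 2 libraries farthest from the median score. On log2(CPM + 1) from the counts it was 0.646 (adjusted permutation p = 0.0182 for r and 0.103 for rho). Under PLX5622, *Tgfbr1* did not pass on TPM, with r = 0.415 (rho = 0.377, adjusted permutation p = 0.0976 for r). Without the 2 farthest libraries it was 0.311 there. *Tgfb1* had r = 0.554 (rho = 0.564) in control mice and 0.505 (rho = 0.552) under PLX5622, with adjusted permutation p-values of 0.0238 and 0.0332. In PLX5622 mice it was 0.386 without the 2 farthest libraries, and on CPM it was 0.538 with an adjusted permutation p of 0.0667. In control mice *Tgfb1* had r = 0.290 on CPM (rho = 0.260, adjusted permutation p = 0.404). *Tgfbr2*, *Itgav*, *Itgb8* and *Smad7* also passed on TPM in control mice (r of 0.574, 0.589, 0.637 and 0.522), but on CPM none of them did, and 1 of the 20 correlations passed there against 7 of 20 on TPM. As a background, 10.3% of all genes tested reached the lowest r that passed on TPM in control mice (0.522), 0.556% the one in PLX5622 mice (0.505), and 0.305% of those with counts the one on CPM in control mice (0.646). *Nrros* had r = 0.307 under control chow and 0.161 under PLX5622, with adjusted permutation p-values of 0.259 and 0.648, and on CPM 0.479 and -0.101, with 0.132 and 0.669. Without control ZT14 replicate 3, the control value of *Nrros* on TPM was 0.191.

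**Figure D5:**
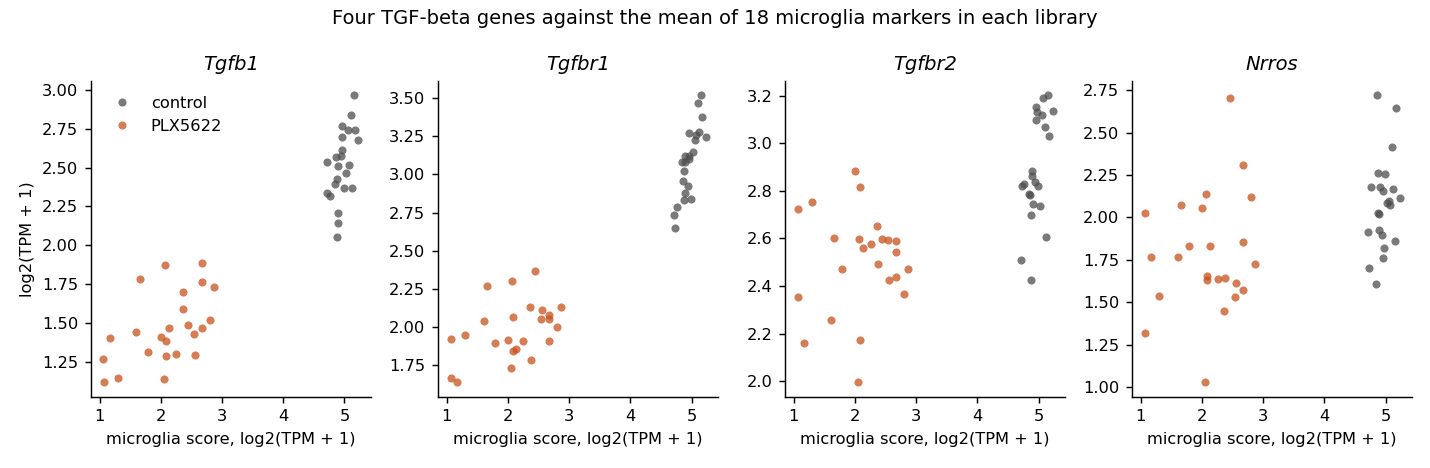
Log2(TPM + 1) of *Tgfb1*, *Tgfbr1*, *Tgfbr2* and *Nrros* (vertical) against the mean log2(TPM + 1) of 18 microglia markers (horizontal) in each library, 1 point per mouse. The diets form 2 clusters, and within the control cluster *Tgfbr1* climbs with the score (r = 0.840 on TPM, 0.646 on CPM).

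Markers of other cell types were examined in the same fit, since most of these genes are made by several of them. Border macrophage markers fell with the microglia: both of the 2 that passed the filter were lower, and the 7 markers summed to 11.2 ± 2.76 TPM in control mice and 1.42 ± 0.775 TPM in PLX5622 mice, led by *Pf4*, a chemokine gene (5.05 and 0.446 TPM). Of 7 astrocyte markers, *Gfap*, a filament gene of reactive astrocytes, rose from 149 ± 36.8 to 218 ± 45.0 TPM (SD, log2 difference 0.56) and 6 did not pass. *Aldoc*, the most abundant, stood at 1128 and 1035 TPM, *Aqp4* at 49.3 and 56.7 TPM and *Gja1* at 126 and 138 TPM, and at an unadjusted p under 0.05 the 7 markers held 3 higher and 1 lower. Of 6 choroid plexus markers, *Ttr* (516 ± 295 and 777 ± 250 TPM, adjusted p = 0.0452) and *Kl* (4.01 ± 1.82 and 5.29 ± 1.35 TPM, adjusted p = 0.0480) rose, with a wide spread between mice, and on the counts both calls were lost (edgeR adjusted p of 0.0734 and 0.0623, DESeq2 0.0896 and 0.0768). None of the markers passed for endothelial cells (7, led by *Ly6c1*, 96.5 and 101 TPM), mural cells (6, *Vtn*, 55.5 and 56.6 TPM), oligodendrocytes (6, *Mbp*, 3964 and 3655 TPM), their precursors (5, *Olig2*, 18.6 and 18.6 TPM), neurons (7, *Snap25*, 1558 and 1612 TPM), fibroblasts (5, *Dcn*, 16.1 and 17.4 TPM) or blood (5, *Hbb-bs*, 384 and 418 TPM). The part of border macrophages, astrocytes and choroid plexus in the levels of the 10 genes was not tested.

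Which genes varied with the 4 that fell, once diet and time were taken out, was asked with the residuals of the 47 libraries after the means of the 12 groups were subtracted. For *Tgfb1* these were *Nova2* (r = 0.69), *Sla* (0.69) and *Pdk2* (0.68). For *Tgfbr1* they were *Abcb1a* (0.81), *Pak2* (0.78) and *Fmn2* (0.78), and for *Tgfbr2* they were *Tmbim6* (0.85), *Cxcl12* (0.83) and *B2m* (0.82). *Nrros* had lower values, with *Armc5* (0.64), *Wdr33* (0.58) and *Ninj1* (0.57). None of the 12 is in the microglia list. *B2m*, which encodes the light chain of MHC class I, fell from 202 to 154 TPM (adjusted p = 8.23e-08), *Sla* fell from 3.74 to 3.09 TPM (adjusted p = 0.0400), *Cxcl12*, a chemokine gene, rose from 25.3 to 29.4 TPM (adjusted p = 0.00570), and the other 9 did not pass. Among the 10 genes themselves, the residual correlations ran from -0.08 (*Tgfb2* with *Nrros*) to 0.78 over 45 pairs, with a median of 0.44. These correlations share library depth and composition and are given as a description.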

How the data were processed

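Cortex libraries of 47 mice were grouped by the diet and Zeitgeber time in their labels (Illumina NovaSeq and HiSeq, paired ends; which library ran on which platform, and which mice shared a cage, is not given in the sources used here). The authors mapped reads to GRCm38.p6 with STAR and quantified TPM with Salmon and a Gencode annotation, and the TPM table was deposited without the correction for sequencing metrics. A second deposited table, named for FPKM, holds whole-number counts per gene without normalization and was used as counts. The submitters' processing notes also name featureCounts, edgeR and limma, without saying which tool made it. The tables share 53068 genes. Strand use in counting is not stated, so reads of overlapping antisense genes cannot be told apart from those of *Tgfb2*, *Tgfb3* and *Itgav*.

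Genes that averaged 1 TPM or more were fitted on log2(TPM + 1) with limma 3.58.1 in R 4.3.3, on diet and on a cosine and a sine of 24 h. Time was tested with the F test of both time terms, in place of JTK_CYCLE, and a diet by time difference with that of their interactions with diet. Adjusted p-values are Benjamini-Hochberg values over all genes tested, with a threshold of 0.05. The 18 microglia markers, the lists of other cell types and the pathway list, like the 10 genes, were chosen with earlier results of these data known, and *Ccn2* replaced an older symbol in the pathway list. Genes were named by a rule: the 10 genes, pathway genes called between diets with the 2 largest that were not, the 3 genes most like each called gene in the residuals, and the most abundant gene of each list or role. Some genes outside it, named for the extremes of the microglia list or for the time test, were chosen after their values were seen. Single values of some listed genes are not reported here. P-values measure the spread between mice of 1 cohort.

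Alternatives were edgeR 4.0.16 and DESeq2 1.42.0 on the counts, no filter on low values, a filter at 5 TPM, a pseudocount of 0.1, median-of-ratios scaling, the replicate number as a block, ZT as a factor, 3 principal components of the residuals, and each library left out in turn. On simulated counts with 200 changed genes, limma called 98.5% of those with a log2 change of 1 between diets. It called 97.5% of those with a time amplitude of 0.5 and 81.5% of those whose amplitude differed by 0.5 between diets. The false share was 3.43%, 3.59% and 6.86% in that order. Recovery of smaller changes was not tested, and the fitted time amplitudes of the 10 genes ran from 0.017 (*Itgb8*) to 0.12 (*Tgfbr2*). Over 69 pairs of libraries within groups the chi-square of the counts per degree of freedom was at least 4.55, so none of these pairs was a repeat. Pairs across groups were not compared. Of the identifiers, 99.68% (TPM) and 99.77% (counts) were found in GENCODE M21, which gave positions. Promoter windows of 8 of the 10 genes were matched by symbol in RefSeq on GRCm38.p6. Python 3.11.15, numpy 2.4.6, pandas 2.3.3, scipy 1.17.1 and matplotlib 3.10.9 were used.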

Additional observations from a re-analysis of the deposited data

Results flagged for a closer look

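In 4 of the 110 groups of 4 mice examined over the 10 genes, 1 mouse stood apart from the other 3 by Dixon's test, where chance gives about 5.5. *Tgfb2* was at 4.82 TPM (347 reads) in control ZT10 replicate 2, above the 3.65 to 3.78 TPM of the other 3 mice. *Nrros* was at 1.04 TPM (56 reads) in PLX5622 ZT18 replicate 2, below 1.98 to 2.12 TPM. *Smad3* was at 14.7 TPM in control ZT10 replicate 4, above 12.9 to 13.2 TPM, with 1033 reads that lay inside the range of the others (929 to 1326). *Smad3* was also at 18.1 TPM (1462 reads) in PLX5622 ZT18 replicate 4, above 12.1 to 12.4 TPM.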

How the results depend on the processing

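*Tgfb1*, *Tgfbr1* and *Tgfbr2* were called lower in every fit that tested them. *Nrros* was not tested at a mean of at least 5 TPM, where 7 of the 10 genes were tested and 2 called, and its call was lost without a filter (adjusted p = 0.0668) and in 25 of 47 fits that left out 1 library. Against 503 genes called between diets, edgeR called 1210, DESeq2 1350, the 5 TPM filter 298 and the fit with 3 residual principal components 2558, and for other pathway genes 6, 6, 1 and 10 in place of 3. That last fit leaves every fold change as it was and narrows the errors, because its components come from the residuals of the same model. Its larger counts are therefore not read as further findings. It put 32.8% of the called genes lower, against 74.8%. Against 767 genes called over time, edgeR gave 2074, DESeq2 2406, median-of-ratios scaling 1336, ZT as a factor 1609 and the principal components 4270. Of the 10 genes, 1 was then called over time by edgeR, by DESeq2 and with median-of-ratios scaling (*Tgfbr2* each time) and 3 with the principal components (*Tgfbr2*, *Itgav* and *Smad3*), where 237 genes were called for a diet by time difference. For the settings other than the principal components, the cause of the differing counts was not tested.

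*Itgb8* was called higher by edgeR, DESeq2, median-of-ratios scaling and the principal components and in 6 fits that left out 1 library, *Tgfb2* higher with the principal components, and *Tgfb3* lower by edgeR and DESeq2. The Smad3 log2 fold change turned to -0.00103 (DESeq2), -0.0158 (median-of-ratios) and -0.000777 (replicate block), and ranged from -0.0182 to 0.0329 with 1 library left out. On log2(CPM + 1), 1 of the 20 correlations with the microglia score passed in place of 7, where 0.305% of all genes reached its r in control mice, and 10.3% the lowest r that passed there on TPM. The replicate block gave 578 genes called between diets, with the same 4 of the 10, and 1043 genes called over time. Deviations from the group means had a median correlation of 0.055 between same-numbered mice of different groups (253 pairs). Between differently numbered mice it was -0.019 (759 pairs). Same-numbered mice at 1 Zeitgeber time correlated over 0.1 in 7 of 23 pairs. What the replicate number stands for is not given in the labels, and a shared batch was not tested. *Tgfb1* and *Nrros* rest on few reads (33 and 56 in their lowest libraries), which limits what single mice show.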
